A study of Mus musculus with 9 samples.

Results

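The JAK-STAT genes described here are the receptor genes *Ghr*, *Il6st* and *Il6ra*, the kinase genes *Jak1* and *Jak2*, the transcription factor genes *Stat3* and *Stat5b*, the inhibitor genes *Socs2* and *Socs3*, and the target gene *Pim1*. They were taken by gene symbol from the deposited expression tables and are 10 of 23332 gene rows. The genes were picked with results of these data already known, so their fold changes and p-values below place them in the fit over all genes and are a description, not an independent test. The sequenced RNA came from FVB MOE cells, a line grown from the oviductal epithelium of FVB mice that the study describes as monoclonal and made up of secretory cells. All cells had been kept in a medium with serum, insulin and 18.2 ng/mL 17-beta-estradiol. They were then held for 48 h in phenol red-free medium with 10% charcoal-stripped serum and treated for 24 h. The 3 treatments were solvent (0.1% DMSO), 1 nM 17-beta-estradiol (E2) and 100 nM 4-hydroxytamoxifen (4OHT), with 3 samples each, numbered replicate 1 to 3. E2 is the natural ligand of the estrogen receptors, and 4OHT is a selective estrogen receptor modulator, the active form of tamoxifen. The comparisons asked which genes responded to each compound, and whether 4OHT acted like E2 in these cells. The results come from 1 cell line and 1 time point, and the 2 compounds were given at different doses. No label says that the replicates were separate cultures, so p-values measure the spread between these samples only.

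Cytokine and growth hormone receptors have no kinase of their own. Ligand binding brings together receptor chains that carry Janus kinases (JAKs), the kinases phosphorylate the receptor and the STAT proteins docked on it, and STAT dimers enter the nucleus and switch on genes. Among those genes are SOCS proteins, which shut the receptors down again, and survival kinases such as PIM1. The growth hormone receptor, encoded by *Ghr*, works through JAK2 and STAT5. The interleukin-6 receptor pairs a ligand-binding chain, encoded by *Il6ra*, with the signal-transducing chain gp130, encoded by *Il6st*, which is shared by the whole interleukin-6 family and works mostly through JAK1 and STAT3. RNA levels do not show whether any of these proteins was active.

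The 10 genes lie on 8 mouse chromosomes (GRCm38, the assembly that mm10 names, with GENCODE gene models). *Ghr* is at chr15:3317760-3583492 on the minus strand, *Il6st* at chr13:112464070-112510086 on the plus strand and *Il6ra* at chr3:89864059-89913196 on the minus strand. *Jak1* is at chr4:101152367-101265282 on the minus strand and *Jak2* at chr19:29251828-29313080 on the plus strand. *Stat3* (chr11:100885098-100939540, minus) and *Stat5b* (chr11:100780731-100850724, minus) flank *Stat5a* (chr11:100859351-100885169, plus), and the ends of *Stat3* and *Stat5a* overlap on opposite strands. *Socs2* is at chr10:95385362-95417180 on the minus strand, *Socs3* at chr11:117966079-117970047 on the minus strand and *Pim1* at chr17:29490753-29496112 on the plus strand. The libraries were directional, but whether strand was used in the authors' counting is not given in the sources used here, so reads at the *Stat3* and *Stat5a* overlap are uncertain.

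Since the members were compared after an estrogen, the 250 bases upstream of their RefSeq start sites (GRCm38.p6) were read for 2 kinds of motif. RefSeq windows were found for 9 of the 10 members, 12 windows in all. The STAT motif TTCNNNGAA, which is its own reverse complement, was present in 1 member, *Socs3*, and in 7.02% of all 32851 promoter windows of that length. Counted by gene, 2197 of the 27025 genes with a window held it. The full estrogen response element, the arms GGTCA and TGACC with 3 bases of any kind between them, also reads the same on both strands, and was present in 0 members and in 0.0639% of all windows. A single arm, GGTCA or TGACC, was present in 2 members, *Il6st* and *Stat5b*, and in 35.2% of all windows. Counted by gene, 10366 of the 27025 genes with a window held a single arm. Each full element also holds the single arms. The windows shown are those of the receptor genes *Ghr* and *Il6st* and the kinase gene *Jak2*, which stood higher with E2, and that of *Socs3*, which stood lower. They read 5′ to 3′ on the gene's strand, with motifs in capitals.
Ghr (chr15:3583353-3583602, minus): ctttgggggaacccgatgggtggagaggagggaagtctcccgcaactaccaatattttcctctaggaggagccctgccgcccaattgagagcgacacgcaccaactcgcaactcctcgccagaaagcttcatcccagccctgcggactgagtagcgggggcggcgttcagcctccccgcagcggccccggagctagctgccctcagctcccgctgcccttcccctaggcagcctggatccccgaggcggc
Il6st (chr13:112463820-112464069, plus): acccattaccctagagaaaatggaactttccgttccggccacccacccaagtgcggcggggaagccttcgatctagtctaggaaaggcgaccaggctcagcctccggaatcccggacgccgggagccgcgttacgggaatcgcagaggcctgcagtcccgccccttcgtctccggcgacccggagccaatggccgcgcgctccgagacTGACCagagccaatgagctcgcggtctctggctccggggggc
Jak2 (chr19:29251553-29251802, plus): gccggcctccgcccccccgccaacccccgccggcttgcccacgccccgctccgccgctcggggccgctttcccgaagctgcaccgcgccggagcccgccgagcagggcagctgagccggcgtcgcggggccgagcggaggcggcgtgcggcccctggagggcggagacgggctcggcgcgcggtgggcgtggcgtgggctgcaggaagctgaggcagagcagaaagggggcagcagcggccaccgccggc
Socs3 (chr11:117969367-117969616, minus): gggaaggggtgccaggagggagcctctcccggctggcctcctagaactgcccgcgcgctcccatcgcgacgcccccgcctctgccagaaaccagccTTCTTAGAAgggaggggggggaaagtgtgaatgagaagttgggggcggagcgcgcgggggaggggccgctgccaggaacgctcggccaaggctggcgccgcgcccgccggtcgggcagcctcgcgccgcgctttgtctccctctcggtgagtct
The capitals in the *Il6st* window mark the single arm TGACC, which begins 42 bases before the start. Those in the *Socs3* window mark the STAT motif TTCTTAGAA, which begins 154 bases before the start. The *Ghr* and *Jak2* windows shown hold none of the motifs, and neither does a second *Ghr* window, chr15:3581843-3582092, which is not shown. GENCODE places 140 bases of the *Ghr* window shown and 77 of the *Socs3* window in exons of further, non-coding transcripts of those genes. The share of G and C was 80.8% in the *Jak2* window, 71.6% for *Socs3*, 66.0% for *Il6st* and 65.6% for the *Ghr* window shown. A match is a description of the letters and not a binding site.

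FPKM totals were 522517 to 588640 per library, and 11037 to 11175 rows reached 1 FPKM. The depth of the libraries relative to DMSO replicate 1, read from the value of 1 read, was 0.818 to 1.185, with 4OHT libraries at 0.818 to 0.923. Rows with at least 1 FPKM in at least 3 libraries were tested, 11339 in all, and all 10 members passed. Of 8 secretory epithelial markers, 6 were at 1 FPKM or more in every library, *Pax8* among them at 105.0 to 150.0 FPKM, while *Epcam* and *Cdh1* stayed below 0.5 FPKM. The summed level of the 8 markers was 1438 to 1579 FPKM with DMSO, 2253 to 2482 with E2 and 1467 to 1668 with 4OHT. The keratin gene *Krt7* went from 439, 222 and 267 FPKM in DMSO replicates 1, 2 and 3 to 927, 748 and 775 with E2. *Pax8*, *Krt8* and *Krt18* were also higher with E2 in each replicate. *Msln* was lower in each, at 118.0, 179.0 and 188.0 FPKM with DMSO and 99.1, 145.0 and 162.0 with E2. *Ovgp1*, at 1.44 to 2.61 FPKM over all libraries, was lower with E2 in each as well. The ciliated-cell factor gene *Foxj1* was at 13.6, 15.3 and 15.9 FPKM with DMSO and lower in each replicate with E2, at 8.95, 11.7 and 13.0. *Ccdc39*, at 1.0 to 1.71 FPKM over all libraries, was also lower with E2 in each. *Rsph1* was higher in each, at 3.1, 3.21 and 2.98 FPKM with DMSO and 3.65, 3.86 and 3.52 with E2. *Tekt1*, which encodes a protein of motile cilia, was at 0.0124 to 0.188 FPKM. The 5 ciliated-cell genes with a row summed to 423 to 550 FPKM with DMSO, 413 to 441 with E2 and 454 to 580 with 4OHT. Most of that sum was *Tubb4b*, at 395.0 to 561.0 FPKM over all libraries. Of 7 leukocyte genes with a row, 5 stayed under 1 FPKM in every library, with *Cd3e* listed at 0 and *Ptprc* at most 0.0271 FPKM. The remaining genes, *Csf1r* at 3.23 to 5.94 FPKM and *Cd68* at 3.01 to 4.01, made up most of the summed level. The summed level of the 7 genes was 7.65 to 9.92 FPKM with DMSO, 7.16 to 9.7 with E2 and 6.26 to 8.68 with 4OHT. Of 7 stromal genes, 5 stayed under 1 FPKM, *Col1a2*, *Col3a1* and *Thy1* among them, while *Vim* was at 1640 to 2050 FPKM and *Col1a1* at 1.84 to 6.73. Their sum was 1642 to 1913 FPKM with DMSO, 1685 to 1923 with E2 and 1655 to 2053 with 4OHT. Of 4 smooth muscle genes, *Myh11* and *Des* stayed under 1 FPKM, *Acta2* was at 932 to 1720 and *Cnn1* at 10.0 to 36.5, and the 4 summed to 947 to 1447 FPKM with DMSO, 1300 to 1752 with E2 and 1257 to 1555 with 4OHT. The 4 endothelial genes summed to at most 1.41 FPKM. The part of these shifts in the results below was not tested. Replicate 1 stood apart in the estrogen response genes: *Pgr*, which encodes the progesterone receptor, was at 9.58, 1.36 and 1.16 FPKM in DMSO replicates 1, 2 and 3. *Pgr* was at 38.1, 21.1 and 15.9 FPKM with E2, and at 9.67, 3.67 and 2.39 FPKM with 4OHT. *Esr1*, which encodes the estrogen receptor ERα, was at 12.4, 5.98 and 6.0 FPKM with DMSO, 16.3, 9.32 and 8.31 with E2 and 11.2, 5.25 and 5.4 with 4OHT. In bulk RNA, fewer cells of one state and less RNA per cell cannot be told apart.

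Without treatment, the 10 genes covered a wide range of levels. FPKM are per kilobase of transcript, so levels may be set beside each other. With DMSO, *Socs2* (48.1 ± 8.42 FPKM, SD, n = 3), *Il6st* (42.8 ± 11.5) and *Ghr* (40.3 ± 3.83) were highest, and their ranges over the 3 libraries overlapped. *Stat3* (27.3 ± 8.35 FPKM), *Jak2* (23.1 ± 6.48), *Jak1* (21.1 ± 1.13) and *Pim1* (17.8 ± 2.62) followed, each overlapping its neighbor in this order. *Stat5b* (8.29 ± 0.164 FPKM), *Socs3* (4.8 ± 0.0846) and *Il6ra* (1.95 ± 0.567) were lower, with no overlap between neighbors. *Socs2* lay at percentile 83.2 of the tested rows and *Il6ra* at percentile 8.3. The interleukin-6 receptor was thus uneven in RNA, with 19.9 to 24.8 times as much *Il6st* as *Il6ra* per kilobase in the DMSO libraries.

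**Figure D1:**
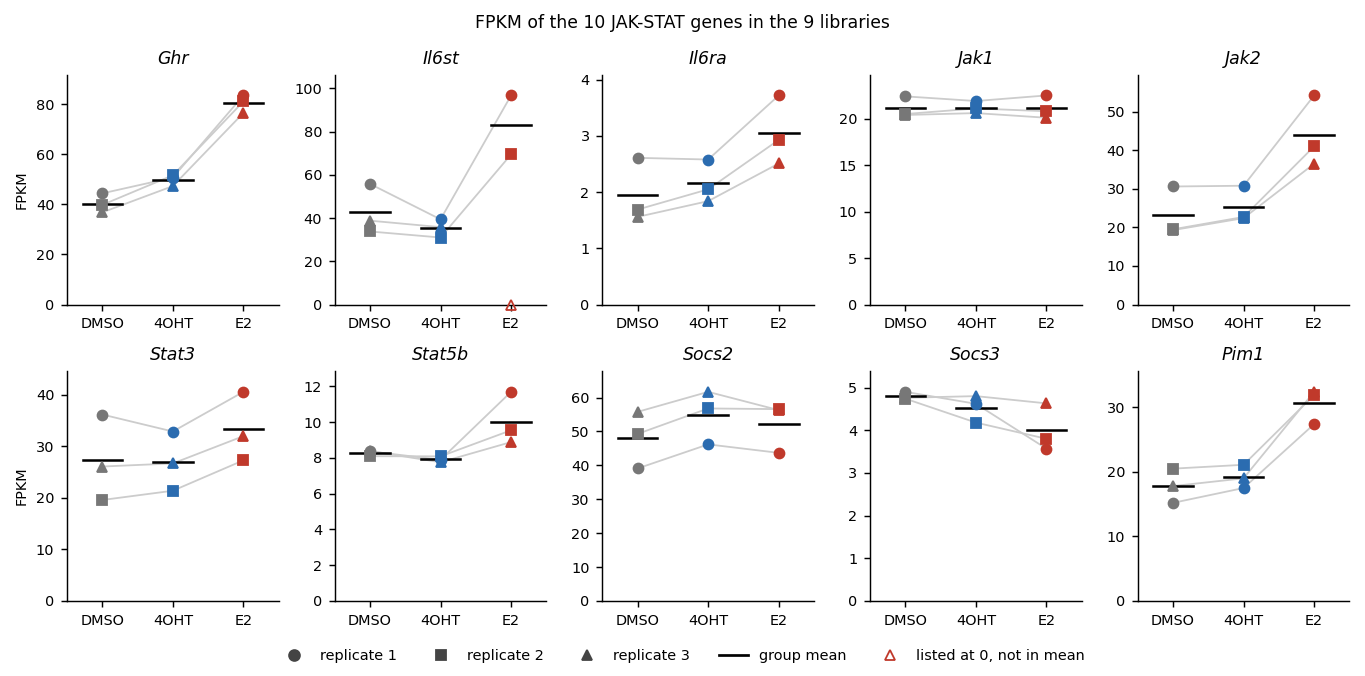
FPKM of the 10 genes (y axes, each from 0) in DMSO, 4OHT and E2 libraries (x axes). Each symbol is a library, gray lines join libraries with the same replicate number, and black bars are group means. The E2 libraries of *Ghr*, *Jak2* and *Pim1* lie above all DMSO and 4OHT libraries. The open triangle is *Il6st* in E2 replicate 3, listed at 0 and not part of the mean of 83.1 FPKM.

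Of the receptor genes, *Ghr* stood at 1.99-fold, *Il6st* at 1.94-fold and *Il6ra* at 1.56-fold the DMSO level with E2. *Ghr* was at 44.4, 39.8 and 36.8 FPKM with DMSO (replicates 1, 2 and 3), at 83.5, 81.1 and 76.5 FPKM with E2, and at 50.7, 51.6 and 47.3 FPKM with 4OHT. The 3 treatments did not overlap, and 4OHT lay between DMSO and E2. *Ghr* rose with E2 in each replicate, by 1.88-, 2.04- and 2.08-fold. On the log2(FPKM + 1) scale the change was 0.98 (SE 0.075, limma adjusted p = 0.00216 by Benjamini-Hochberg), and it passed the threshold of 0.05 in each of the 9 fits without 1 library. Against 4OHT, *Ghr* was higher with E2 by 0.68 (adjusted p = 0.019 in limma). That call was kept without any 1 DMSO library, but not without any 1 E2 or 4OHT library, where the adjusted p was 0.0559 to 0.101. With the replicate number as a block, the limma adjusted p against 4OHT was 0.000126. The blocked call held in 9 of 9 fits without 1 library.

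*Il6st* was at 55.8, 33.8 and 38.8 FPKM with DMSO, and at 39.4, 31.0 and 35.8 FPKM with 4OHT. With E2 it was at 96.7 FPKM in replicate 1 and 69.4 FPKM in replicate 2, and was listed at 0 in replicate 3. A value of 0 in a gene at 31.0 FPKM or more in the other 8 libraries can be a failed estimate. Such zeros occurred in 266 well-expressed rows, with 80 to 109 in each library and 109 in E2 replicate 3, and were left out. Both remaining E2 libraries were above all DMSO and 4OHT libraries, at 1.73-fold the DMSO value in replicate 1 and 2.05-fold in replicate 2. The change with E2 was 0.95 (SE 0.22, limma adjusted p = 0.18), fitted on 2 E2 libraries. With the replicate number as a block it was 0.93 (limma adjusted p = 0.000801). Without DMSO replicate 1 and without the block, it was 1.16 (limma adjusted p = 0.0459). It did not pass without any other 1 DMSO or 4OHT library (limma adjusted p = 0.227 to 0.478). With the 0 kept as a value, the change was -1.17 with or without the block, so the direction rests on setting that library apart. Against 4OHT the change was 1.19 (adjusted p = 0.123, and 0.000453 with the block, limma), and without DMSO replicate 1 the unblocked adjusted p was 0.0392. The change was still 1.19 there, because the DMSO libraries enter that comparison only through the shared estimate of the spread. Without any other 1 DMSO or 4OHT library the unblocked limma adjusted p was 0.122 to 0.439.

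*Il6ra*, the weakest of the 10 genes, was at 2.61, 1.69 and 1.56 FPKM with DMSO, 3.72, 2.93 and 2.51 with E2, and 2.58, 2.05 and 1.84 with 4OHT. Each replicate was higher with E2 than with DMSO, by 1.43- to 1.73-fold, but E2 replicate 3 was below DMSO replicate 1, so the groups overlapped. The change of 0.46 (SE 0.16) did not pass without the block (limma adjusted p = 0.341) and passed with it (limma adjusted p = 0.00157). The same held against 4OHT, where the change was 0.36 (limma adjusted p = 0.426, and 0.00601 with the block). At under 4 FPKM, a change on the log2(FPKM + 1) scale is smaller than that of the FPKM themselves.

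Of the 2 kinase genes, *Jak2* was higher with E2 in every replicate and *Jak1* was not, a difference between genes that was not tested. *Jak1*, the kinase of many cytokine receptors, was at 22.4, 20.5 and 20.4 FPKM with DMSO, 22.5, 20.8 and 20.1 with E2, and 21.9, 21.1 and 20.6 with 4OHT. Its change with E2 was 0.00 with a 95% interval of -0.14 to 0.14, and that with 4OHT was 0.01 (-0.13 to 0.15). *Jak2*, the kinase of the growth hormone receptor, was at 30.6, 19.5 and 19.3 FPKM with DMSO, 54.2, 41.0 and 36.5 with E2, and 30.8, 22.7 and 22.4 with 4OHT. Every E2 library was above every DMSO and 4OHT library, and the *Jak2* level with E2 was 1.77-, 2.11- and 1.9-fold that with DMSO in replicates 1, 2 and 3. The change was 0.91 (SE 0.21, 95% interval 0.43 to 1.39). It did not pass without the block (limma adjusted p = 0.15) and passed with it (4.98e-05). Leaving out DMSO replicate 1 gave 1.12, with an adjusted p of 0.0442 in limma without the block. That was the 1 of 9 unblocked fits without 1 library that passed. The others had a limma adjusted p of 0.154 to 0.492. Against 4OHT, *Jak2* with E2 was higher by 0.77 (limma adjusted p = 0.265, and 0.000167 with the block). With DMSO, *Jak2* was at 1.37, 0.952 and 0.943 times the *Jak1* level in replicates 1, 2 and 3. With E2 the ratio was 2.4, 1.97 and 1.82, and with 4OHT it was 1.41, 1.08 and 1.08.

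The 2 STAT genes were higher with E2 in every replicate, by 0.30 and 0.24 on the log2 scale. *Stat3*, which serves gp130, was at 36.2, 19.6 and 26.1 FPKM with DMSO, 40.6, 27.3 and 32.0 with E2, and 32.9, 21.4 and 26.7 with 4OHT. The groups overlapped widely, since replicate 1 was highest and replicate 2 lowest under every treatment, while each replicate was 1.12- to 1.39-fold higher with E2 than with DMSO. The change of 0.30 (SE 0.24) had a limma adjusted p of 0.676 without the block and 0.00924 with it. Against 4OHT the *Stat3* change was also 0.30 (limma adjusted p = 0.597, and 0.011 with the block).

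*Stat5b*, which serves the growth hormone receptor, was at 8.37, 8.1 and 8.39 FPKM with DMSO, 11.7, 9.55 and 8.89 with E2, and 7.9, 8.09 and 7.76 with 4OHT. The E2 libraries were above all others, at 1.39-, 1.18- and 1.06-fold the DMSO level in replicates 1, 2 and 3. The change with E2 was 0.24 (SE 0.086, limma adjusted p = 0.349, and 0.0509 with the block). Against 4OHT it was 0.30 (limma adjusted p = 0.283, and 0.024 with the block), and this call held in 5 of the 9 blocked fits without 1 library. *Stat5a*, its neighbor and close relative, which is not among the 10 genes, was at 4.77, 3.45 and 3.39 FPKM with DMSO, 9.16, 6.1 and 5.47 with E2, and 4.15, 3.4 and 3.42 with 4OHT. The *Stat5a* change with E2 was 0.68 (SE 0.18, limma adjusted p = 0.199, and 0.000921 with the block). *Stat5a* stood at 0.404 to 0.57 times the *Stat5b* level with DMSO, 0.615 to 0.785 times with E2 and 0.42 to 0.526 times with 4OHT. The 2 genes are similar in sequence, and how the authors' counting treated reads that fit both is not given in the sources used here.

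The 2 inhibitor genes did not pass in any comparison, with or without the block. *Socs2*, which encodes a brake on growth hormone signaling, was at 39.1, 49.3 and 55.8 FPKM with DMSO, 43.7, 56.6 and 56.3 with E2, and 46.2, 56.8 and 61.7 with 4OHT. Replicate 1 was lowest under every treatment, and the groups overlapped. The *Socs2* change was 0.12 with E2 (95% interval -0.24 to 0.49, limma adjusted p = 0.802, and 0.0799 with the block). *Socs3*, which encodes a brake on gp130, was at 4.9, 4.74 and 4.76 FPKM with DMSO, 3.57, 3.8 and 4.63 with E2, and 4.62, 4.18 and 4.8 with 4OHT. It was the 1 gene of the 10 whose E2 libraries were all below the DMSO libraries, at 0.73-, 0.801- and 0.973-fold in replicates 1, 2 and 3. The change of -0.22 (SE 0.086) had a limma adjusted p of 0.397 without the block and 0.0583 with it.

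*Pim1*, a survival kinase gene that STAT proteins switch on, was at 15.2, 20.5 and 17.8 FPKM with DMSO, 27.4, 31.9 and 32.4 with E2, and 17.5, 21.1 and 19.0 with 4OHT. No E2 library overlapped the others, while the DMSO and 4OHT libraries overlapped. *Pim1* rose 1.72-fold with E2 in the means, by 0.75 on the log2 scale (SE 0.12, limma adjusted p = 0.0337, and 9.17e-05 with the block). Without the block the call was close to the threshold. It held without DMSO replicate 1 (limma adjusted p = 0.0459) or DMSO replicate 2 (0.0434), and was lost without any 1 of the other 7 libraries (0.0516 to 0.145). With the block it held in 9 of 9 such fits. Against 4OHT the *Pim1* change was 0.65 (limma adjusted p = 0.0776, and 0.000274 with the block), and without DMSO replicate 1 its unblocked adjusted p was 0.0392. The change was still 0.65 there, because the DMSO libraries enter that comparison only through the shared estimate of the spread. That was the 1 of 9 unblocked fits without 1 library that passed. The others had a limma adjusted p of 0.0662 to 0.293.

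**Figure D2:**
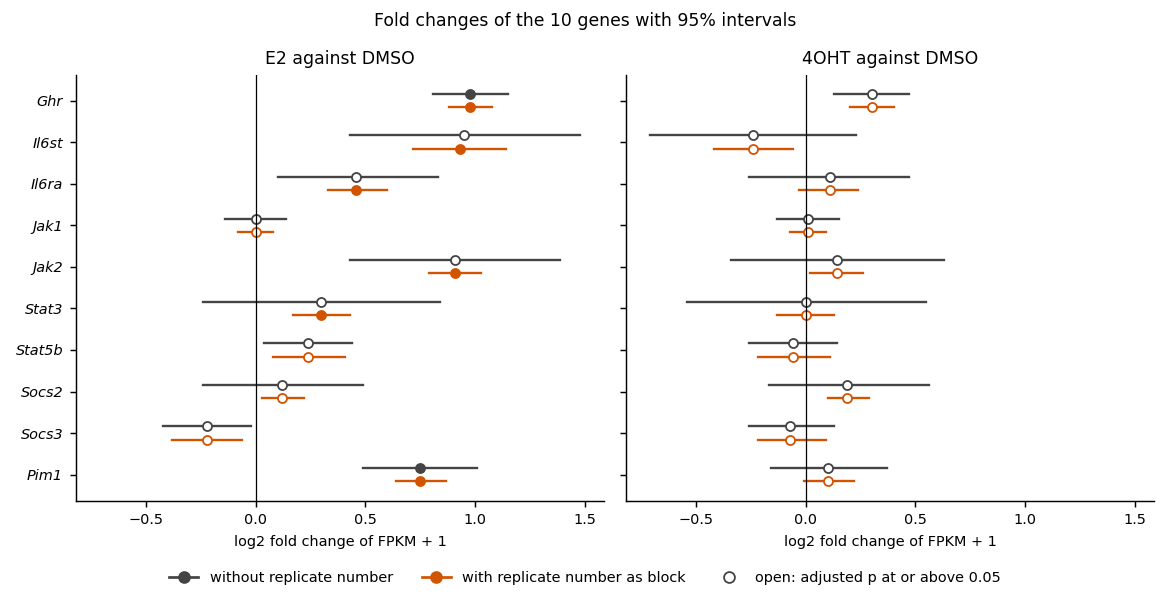
Log2 fold changes of FPKM + 1 (x axis) for the 10 genes with 95% intervals, for E2 (left) and 4OHT (right) against the same 3 DMSO libraries, without (gray) and with (orange) the replicate number as a block. Filled points have an adjusted p under 0.05. In the E2 panel *Ghr* at 0.98 and *Pim1* at 0.75 are filled in both fits, and no point is filled in the 4OHT panel.

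Together, 2 of the 10 genes, *Ghr* and *Pim1*, passed for E2 against DMSO, both higher, where 0.582% of all 11334 rows tested were called, 0.547% higher (62 rows) and 0.0353% lower (4 rows). With the block, 6 of the 10 passed, *Jak2*, *Stat3*, *Il6ra*, *Il6st*, *Ghr* and *Pim1*, all of them higher, against 18.5% of 11326 rows, 12.0% higher and 6.45% lower. Apart from *Il6st*, those calls held in 9 of 9 blocked fits without 1 library. *Il6st* has only 2 E2 libraries with a value, so leaving out an E2 library cannot check its call in the same way. With zeros kept as values, 5 of the 10 passed with the block, and *Il6st* did not (limma adjusted p = 0.596). Without the block, leaving out DMSO replicate 1 gave 4 called members, leaving out DMSO replicate 2 gave 2, and leaving out any other library gave 1. Over all rows, the same fits called 13 to 87 genes, so the member counts moved along with a changing total. In E2 against 4OHT, *Ghr* passed, against 0.327% of rows, and 7 genes with the block, the 6 named before and *Stat5b*, all higher, against 21.4%, 10.6% higher and 10.8% lower. The E2 and DMSO libraries did not overlap for 5 higher genes, *Jak2*, *Stat5b*, *Il6st*, *Ghr* and *Pim1*, against 9.54% of rows, and for 1 lower gene, *Socs3*, against 6.2%. Of the 9 genes with no zero, 7 were higher with E2 in all 3 replicates, against 28.4% of rows. After upper-quartile or equal-total scaling 6 were, without *Socs2*, and *Jak1* was lower in all 3 under upper-quartile scaling. The shares of all rows after scaling are not given here. The median change with E2 was 0.38 over the 10 genes and -0.00 over all rows tested. These shares describe genes that were picked for their response, and the 2 comparisons with E2 share its libraries.

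With 4OHT, 0 of the 10 genes passed, with or without the block. Over all rows, 0.0% passed in limma without the block, with 2.65% of 11325 rows (300) at an unadjusted p under 0.05, and 0.0795% (9 rows) with it. *Ghr* was nearest to the threshold. It was 1.14-, 1.3- and 1.28-fold the DMSO level in replicates 1, 2 and 3, with no overlap between 4OHT and DMSO. The change was 0.30 with a 95% interval of 0.13 to 0.47 (limma adjusted p = 1.00, and 0.0599 with the block). *Socs2* was 1.11- to 1.18-fold higher in each replicate, a change of 0.19 (limma adjusted p = 0.193 with the block). *Jak2* was at 1.01- to 1.17-fold and *Pim1* at 1.03- to 1.15-fold the DMSO level. *Il6st* was lower in each, at 0.706-, 0.917- and 0.923-fold (-0.24, limma adjusted p = 0.318 with the block). *Stat5b* was lower in each at 0.925- to 0.999-fold, and its 4OHT and DMSO libraries did not overlap. Thus 4 of the 10 genes were higher and 2 lower in all 3 replicates, against 30.5% and 15.7% of all rows, and *Ghr* and *Stat5b* did not overlap, against 4.61% of rows higher and 3.78% lower. After upper-quartile or equal-total scaling, 2 were higher in all 3 replicates, *Socs2* and *Ghr*, and 4 lower, *Jak1*, *Stat5b*, *Socs3* and *Il6st*. The shares of all rows after scaling are not given here. The median change with 4OHT was 0.06 over the 10 genes and 0.02 over all rows. After upper-quartile and equal-total scaling it was -0.027 and -0.029 over all rows.

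The 10 genes also differed in how far the replicate number, rather than the treatment, went with their level. Over the 9 libraries, treatment held 96.7% of the sum of squares of *Ghr*, 86.9% of that of *Pim1* and 72.1% of that of *Jak2*. The replicate number held 91.1% for *Jak1*, 81.4% for *Socs2* and 76.6% for *Stat3*, and 43.3% for *Il6ra*. *Stat5b* and *Socs3* had the largest remainders, 20.6% and 25.2%. Replicate 1 was highest under every treatment for *Jak1*, *Jak2*, *Stat3*, *Il6ra* and *Il6st*, as it was for *Esr1*, and lowest under every treatment for *Socs2* and *Pim1*. What set replicate 1 apart was not tested.

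**Figure D3:**
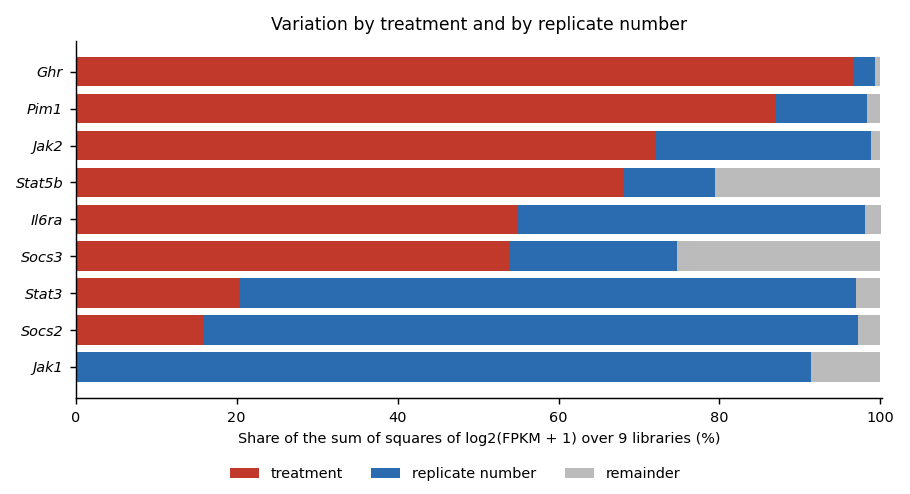
Share of the sum of squares of log2(FPKM + 1) over the 9 libraries (x axis, percent) that went with treatment (red), replicate number (blue) and neither (gray). *Il6st* is left out because of its 0. Treatment takes 96.7% for *Ghr* and 0.3% for *Jak1*, where the replicate number takes 91.1%.

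A wider list of 98 further JAK-STAT genes was read for context, of which 97 had a row and 63 were tested. Of 23 ligand genes, 15 were below the filter: *Il6* reached at most 0.0714 FPKM and *Osm* 0.0171, and *Gh* and *Prl* were listed at 0 in every library. The receptor genes *Prlr*, at most 0.0352 FPKM, and *Csf2ra*, at most 0.0708, were also below it. Among the tested ligands, *Clcf1*, an interleukin-6 family cytokine gene, was highest, at 208.0 ± 6.37 FPKM with DMSO and 223.0 ± 5.03 with E2 (SD, n = 3). A row that joins *Cntf* with *Zfp91* and one that joins *Jak3* with *Insl3* cannot be assigned to either gene.

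For E2 against DMSO, 2 of the 63 genes passed without the block, 3.17% against 0.582% of all rows, both higher. *Csf2*, which encodes the cytokine GM-CSF, was at 1.06, 0.75 and 0.35 FPKM with DMSO, 8.26, 7.07 and 5.75 with E2, and 3.25, 1.61 and 1.47 with 4OHT. The 3 treatments did not overlap. With DMSO, *Csf2* lay at percentile 0.2 of the tested rows and only replicate 1 reached 1 FPKM, so the row passed the filter through the treated libraries. The *Csf2* change with E2 was 2.23 (limma adjusted p = 0.00759), and without E2 replicate 2 its adjusted p was 0.0513. At this low level the log2(FPKM + 1) change is smaller than that of the FPKM, whose means differed 9.79-fold. *Fos*, which encodes an immediate-early transcription factor, was at 3.18 ± 0.79 FPKM with DMSO and 9.16 ± 1.8 with E2 (SD, n = 3). Its change of 1.28 (limma adjusted p = 0.0271) was lost without any 1 of 6 libraries, DMSO replicates 2 and 3, E2 replicates 1, 2 and 3, and 4OHT replicate 1 (0.0503 to 0.111).

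With the block, 18 of the 63 genes (28.6%) passed for E2, against 18.5% of all rows. Of these, 14 were higher and 4 lower, against 12.0% and 6.45% of all rows. Besides *Csf2*, the ligand gene *Il15* rose in that fit, by 0.43 (limma adjusted p = 0.00789), from 4.52, 3.78 and 2.3 FPKM with DMSO to 6.18, 4.92 and 4.05 with E2. Of 13 receptor genes, 5 rose in that fit: *Lifr*, the partner of gp130 for leukemia inhibitory factor (0.31), *Il13ra1* (0.30), *Il20rb* (0.29), *Il4ra* (0.22) and *Ifnar2* (0.17). *Il20rb* was near the filter, at 0.514 to 1.77 FPKM over all libraries, and close to the threshold (limma adjusted p = 0.0476 with the block). The most abundant receptor genes, *Ifngr1* and *Ifngr2*, which form the interferon gamma receptor, were at 0.06 and 0.14 and did not pass. Of 4 transcription factor genes, *Stat5a* and *Stat2* (0.21) rose, and *Stat6*, the most abundant, was at 0.04. Of 16 inhibitor and phosphatase genes, 0 passed in limma in either fit. At an unadjusted p under 0.05 there were 0 without the block, against 10.9% of all rows, and 2 with it, *Socs4* and *Ptpn1*, both higher, against 34.2%. *Ptpn11* and *Ptpn1*, the phosphatase genes with the highest levels, were at 0.04 and 0.12. The kinase gene *Tyk2* was at 0.07 (limma adjusted p = 0.348 with the block).

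Of 20 tested target genes, 9 passed with the block, 5 of them higher and 4 lower, against 12.0% and 6.45% of all rows. *Fos*, *Cebpd* (0.59), *Klf4* (0.49), *Hif1a* (0.18) and *Mcl1* (0.11) rose. *Ccnd1*, which encodes the cell-cycle regulator cyclin D1, fell by 0.54, *Bcl3* by 0.47, *Vegfa*, the angiogenic factor gene, by 0.32 and *Myc* by 0.26. None of these 4 passed without the block, where *Bcl3* had the lowest adjusted p of them, 0.183 in limma. *Ccnd1* was at 191.0 ± 79.9 FPKM with DMSO and 128.0 ± 40.2 with E2 (SD, n = 3), a spread between libraries as large as the difference. Replicate number held 70.1% of the sum of squares of *Ccnd1*. Within replicates 1, 2 and 3, *Ccnd1* with E2 was at 0.747-, 0.592- and 0.735-fold the DMSO level (limma adjusted p = 0.00277 with the block). *Timp1* and *Junb*, both highly expressed, were at -0.04 and -0.08.

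For 4OHT against DMSO, *Csf2* was the 1 gene of the 63 that passed with the block, where 0.0795% of all rows did, and it did not pass with the block when zeros were kept as values. Without the block 0 of the 63 passed, with 2 at an unadjusted p under 0.05 (3.17%, against 2.65% of all rows). For E2 against 4OHT, 0 of 63 passed in limma without the block (9 at an unadjusted p under 0.05, against 11.7% of all rows), and 18 with it (28.6%, against 21.4% of all rows). Of these, 11 were higher and 7 lower, against 10.6% and 10.8% of all rows. The 7 lower genes were *Lif*, *Myc*, *Ccnd1*, *Bcl3*, *Junb*, *Cebpb* and *Vegfa*. *Lif*, the leukemia inhibitory factor gene, changed by -0.23 in that comparison, and among the 11 higher genes *Il15* changed by 0.45 and *Clcf1* by 0.12. The median change of the 63 genes was 0.06 for E2 and 0.03 for 4OHT against DMSO.

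**Figure D4:**
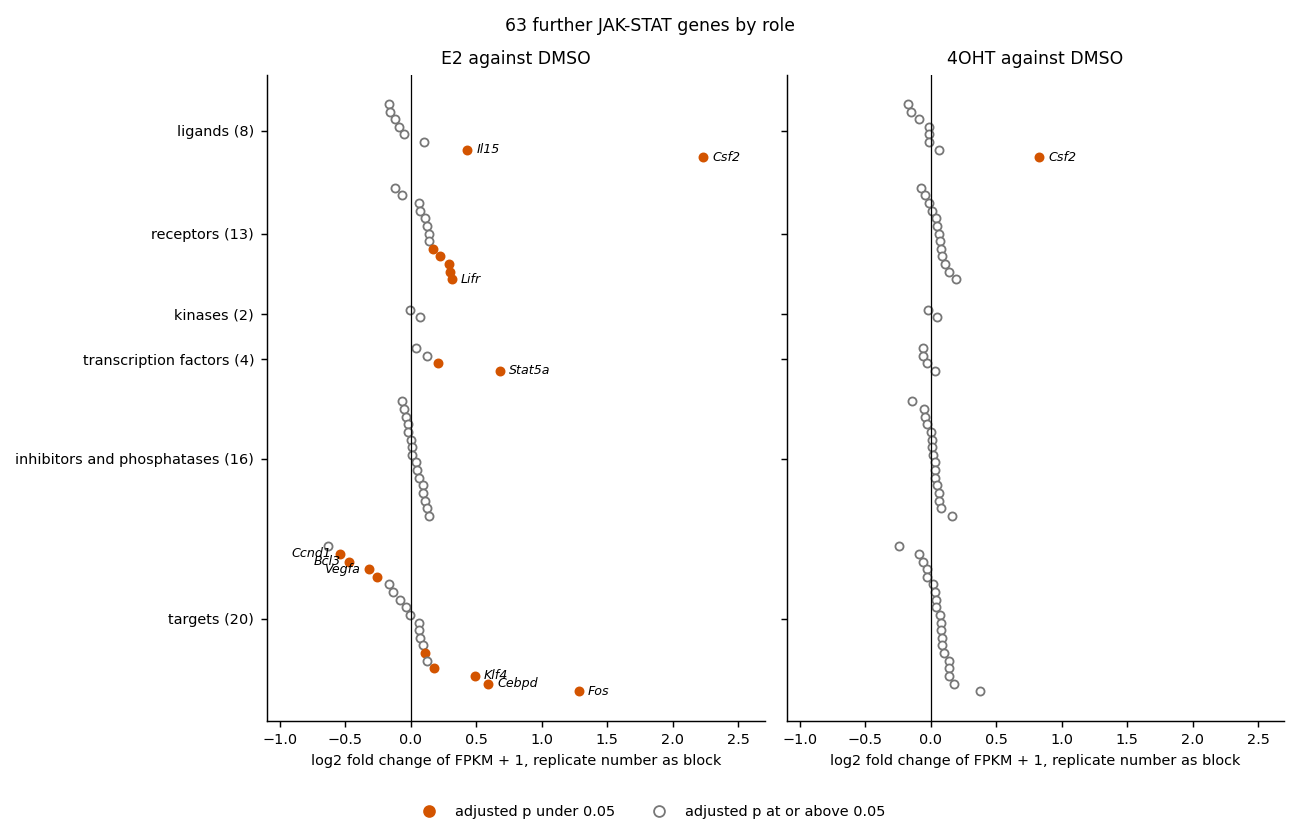
Log2 fold changes of FPKM + 1 (x axis), fitted with the replicate number as a block, for 63 tested JAK-STAT genes grouped by role (rows), for E2 (left) and 4OHT (right) against the same DMSO libraries. Each point is a gene, filled where its adjusted p is under 0.05. *Csf2* lies farthest right in both panels, at 2.23 with E2, and 0 of the 16 inhibitor and phosphatase genes are filled.

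The rows whose pattern over the libraries was closest to each member were found by the root mean square difference of centered log2(FPKM + 1) values. For *Ghr* they were *5430407P10Rik* (0.106) and *Dusp2* (0.12), over 9 libraries. For *Jak2* they were *Sema4a* (0.089) and *4930562F07Rik* (0.103), and for *Pim1*, *Clca4* (0.111) and *Fgd3* (0.118). For *Il6st*, over the 8 libraries with a value, they were *E330013P04Rik* (0.08) and *Lmo7* (0.113). For *Stat3* they were *Ube2h* (0.041) and the receptor gene *Il13ra1* (0.056), and for *Il6ra*, *Reep3* (0.057) and *Gm18853* (0.062). *Stat5b* was closest to *6330416G13Rik* (0.045) and *Itgav* (0.056), and *Jak1* to *Fmr1* and *Rab11b* (0.018 each). *Socs2* was closest to *Anxa3* (0.062) and *Dos* (0.064), and *Socs3* to *Gm9776* (0.045) and *Sowahb* (0.05). These values are descriptions over libraries that share treatment and replicate number, and small differences are easier to reach for genes that vary little.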

How the data were processed

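RNA from 9 samples of FVB MOE cells was sequenced by the authors with a directional, poly-A protocol. Per the labels' processing notes and the study's methods, they aligned reads to mm10 with TopHat2 2.0.8b and computed FPKM (fragments by transcript length and library size) for known genes with Cuffdiff 2.1.1. The deposited FPKM are the values used here; whether further scaling between libraries entered them is not given in the sources used here, and counts were not used. Treatment and replicate number came from the labels.

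All 9 samples entered one limma 3.58.1 fit with trend (R 4.3.3) on log2(FPKM + 1), over the 11339 of 23332 rows with at least 1 FPKM in at least 3 samples. A 0 in a row whose median nonzero value was at least 5 FPKM was set to missing, which affected 217 tested rows. P-values were adjusted by Benjamini-Hochberg within each contrast, with a threshold of 0.05. Fold changes on this scale are smaller than those of FPKM for weak genes. The labels' replicate numbers paired the samples: deviations from group means correlated by 0.438 to 0.795 in all 9 same-numbered pairs. A second fit, blocked on that number, is therefore given for each member whose call it changed. For the wider list it is given as counts, with values for some genes. An exact permutation test of 3 against 3 samples cannot go below a two-sided p of 0.1 and was left out.

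The members and lists were chosen with earlier results of these data known. Named genes are the 10 members, listed pathway genes past the threshold in either fit, the 2 most abundant genes of each role, the 2 rows closest to each member, cell type markers and estrogen response genes. *Stat5a*, *Socs4*, *Il6*, *Osm*, *Gh*, *Prl*, *Prlr* and *Csf2ra* were named or given further values after these were seen. Promoter sequences were read from RefSeq and gene positions from GENCODE M21. Results were recomputed with a pseudocount of 0.1, no filter, upper-quartile or equal-total scaling, zeros kept, the block, only the 6 samples compared, a threshold of 0.01, a robust prior and each sample left out.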

Additional observations from a re-analysis of the deposited data

How the results depend on the processing

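Unless named, fits are without the block. For E2 against DMSO, the 66 genes called became 37 with no filter, 39 with equal totals, 14 with the 6 samples compared, 14 at a threshold of 0.01, 2092 with the replicate block and 1702 with the block and zeros kept. The 2 members called became 1, 2, 1, 1, 6 and 5 under these settings, and the 2 listed pathway genes 1, 2, 1, 1, 18 and 16. Pathway genes at an unadjusted p under 0.05 went from 10 to 27 with the block and 28 with zeros kept as well. For 4OHT against DMSO, 0 genes became 9 with the block and 0 with the block and zeros kept, listed genes called went from 0 to 1 and back to 0, and those at an unadjusted p under 0.05 from 2 to 8, to 7 with zeros kept as well, and to 1 with 6 samples. For E2 against 4OHT, 37 genes became 9 with no filter, 18 with zeros kept, 13 with 6 samples, 3 at 0.01, 2426 with the block and 1840 with the block and zeros kept. The 1 member called there became 2 with equal totals, 7 with the block, 6 with zeros kept as well and 0 at 0.01. Listed genes went from 0 to 18 and 13, and at an unadjusted p from 9 to 25 and 25. The higher to lower split for E2 against DMSO was 62 to 4, 42 to 5 under upper-quartile and 35 to 4 under equal-total scaling, and the median change of all genes over the deposited and both scaled values was -0.037 to -0.002 there, -0.029 to 0.025 for 4OHT against DMSO and -0.014 to 0.017 for E2 against 4OHT.

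Zeros kept as values turned *Il6st* to -1.17 against DMSO and -0.93 against 4OHT, with or without the block, because 1 of 3 E2 values is then 0. *Jak1* with 4OHT turned to -0.05 under both scalings.

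Without 1 library, genes called ranged from 13 to 87 for E2 against DMSO, 0 to 0 for 4OHT and 0 to 56 for E2 against 4OHT, members from 1 to 4, 0 to 0 and 0 to 3, and listed genes from 0 to 2, 0 to 0 and 0 to 0. Listed genes at an unadjusted p under 0.05 ranged from 6 to 17, 1 to 4 and 6 to 11. Chosen after seeing the data, leaving out 1 replicate number in all groups gave 0 to 181, 0 to 1 and 0 to 94 genes, 0 to 3, 0 to 0 and 0 to 3 members, 0 to 3, 0 to 0 and 0 to 2 listed genes, and 6 to 15, 1 to 3 and 5 to 11 at an unadjusted p. Without 1 library, *Socs2* ranged from -0.02 to 0.24 for E2 against DMSO and from -0.19 to 0.05 against 4OHT, *Jak1* with 4OHT from -0.01 to 0.05, *Lif* for E2 against 4OHT from -0.44 to 0.04 and *Il4ra* from -0.02 to 0.33. The causes of these shifts were not tested. FPKM carry no read counts, so no counting error is given for single values.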
